A study of Homo sapiens with 24 samples.

Results

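A set of 9 genes of fatty acid oxidation and of its control by the peroxisome proliferator-activated receptors (PPARs) was followed in SW1783, a human astrocytoma cell line, after 24 h with extracts of Schisandrae Fructus, the dried fruit of Schisandra chinensis. The genes were PLIN2, ANGPTL4, PDK4, CPT1A, CPT2, ACADVL, HADHA, SLC25A20 and FABP3. They were chosen by symbol, and each matched 1 of the 60675 Ensembl identifiers in the deposited table of expected counts. WESF, the hot-water extract, was given in batch A at a low dose of 20 µg/mL, a medium dose of 100 µg/mL and a high dose of 500 µg/mL, and EESF, the extract in aqueous ethanol, in batch B at a low dose of 12.4 µg/mL, a medium dose of 62 µg/mL and a high dose of 310 µg/mL. Each batch had its own vehicle group (vehicle A and vehicle B), which the labels give as 0.1% DMSO and the methods as PBS with that share of DMSO. Each of the 8 groups had 3 libraries, 24 in all, and the labels name no genetic change in any of them. In the study's screening the high dose of WESF was not toxic, whereas that of EESF was a partly inhibitory dose. Extract, dose in µg/mL and batch differ together, so they cannot be told apart when the extracts are compared.

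Library totals ranged from 18727797 to 32567395 expected counts. Nothing in the labels says that the libraries of a group came from separate cultures, so p-values measure only the spread between libraries, which may be technical. The RNA was measured in bulk, and fewer cells that express a gene cannot be told apart from less of its RNA per cell. Of 10 astrocyte markers, 5 reached 1 CPM (the count scaled to the normalized library size) per kilobase of transcript in the vehicles, led by VIM at 2260 CPM per kilobase. The defining markers of mature astrocytes GFAP, S100B, AQP4, SLC1A2 and ALDH1L1 were at or near 0, with no more than 14 counts in any library.

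PPARs are nuclear receptors that bind fatty acids and, paired with a retinoid X receptor (RXR), occupy DNA at a direct repeat of the sequence AGGTCA with 1 base between the copies. Their targets store, release and burn fat. PLIN2 coats lipid droplets, ANGPTL4 is a secreted inhibitor of lipoprotein lipase, and PDK4 phosphorylates pyruvate dehydrogenase and so holds back the use of pyruvate. Long-chain fatty acids enter the mitochondrion through CPT1A on the outer membrane, the carnitine carrier SLC25A20 and CPT2 on the inner membrane. ACADVL carries out the first step of β-oxidation of very long chains, HADHA is the α subunit of the trifunctional protein that performs the later steps, and FABP3 carries fatty acids in the cytosol. In the brain, astrocytes are the main site of fatty acid oxidation.

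The promoters of PLIN2, ANGPTL4 and PDK4 are shown first, since these genes had the largest changes among the 9. They are the bases before the RefSeq start site on the gene's strand (GRCh38.p14), at chr9:19127493-19127742 (minus strand), chr19:8363905-8364154 (plus strand) and chr7:95596517-95596669 (minus strand). For PDK4 the print stops where an annotated exon begins, 153 bases before the start. Capitals mark CACGTG in PLIN2 and AGGGCA in ANGPTL4.
PLIN2: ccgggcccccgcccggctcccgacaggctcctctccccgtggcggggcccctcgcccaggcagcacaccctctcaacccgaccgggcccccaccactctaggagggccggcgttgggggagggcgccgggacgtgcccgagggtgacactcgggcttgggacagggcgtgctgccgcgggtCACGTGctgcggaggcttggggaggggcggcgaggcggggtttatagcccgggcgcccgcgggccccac
ANGPTL4: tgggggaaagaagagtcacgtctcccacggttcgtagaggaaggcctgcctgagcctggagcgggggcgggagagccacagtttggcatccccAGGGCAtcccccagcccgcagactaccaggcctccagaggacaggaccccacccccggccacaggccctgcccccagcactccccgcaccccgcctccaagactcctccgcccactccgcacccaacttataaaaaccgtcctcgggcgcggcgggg
PDK4: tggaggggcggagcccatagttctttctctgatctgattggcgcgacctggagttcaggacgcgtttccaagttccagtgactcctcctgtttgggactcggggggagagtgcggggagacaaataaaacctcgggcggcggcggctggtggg
AGGTCA or AGGGCA, the hexamers of a PPAR element, occurred on either strand in 31.8% of 35116 RefSeq promoters of 300 bases (250 before and 50 after the start). Of the 9 members 3 held 1 such hexamer, ANGPTL4 at -157 (AGGGCA), PDK4 at -201, outside the bases printed, and HADHA at -222, each counted from the start, and PLIN2 held none. The palindrome CACGTG at -69 in PLIN2, chosen for display after it was seen, occurred in 7.26% of those promoters. A full repeat is AGGTCA or AGGGCA followed after 1 base by either of them. It was in no member's promoter and in 0.12% of all. For CPT1A the promoter searched (chr11:68844228-68844527) lies at a different start from that of its MANE Select transcript, which is used below.

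Within 5000 bases on each side of the start of the MANE Select transcript, an exact repeat was found for 0 of 9 genes and for 2.79% of 18938 protein-coding genes. With at most 1 substitution, a search added after the exact one, it was found for 5 of 9 genes and for 31.3% of all. These sites are printed because they are the closest matches near the members, with the repeat in capitals and 8 bases on each side, on the plus strand of hg38.
CPT1A, intron, chr11:68839392-68839420: agaaaagtAGGGGAAAGGTCAgcagcagc
CPT1A, upstream, chr11:68846659-68846687: ggtgcagcAGGCCACAGGGCAcagagctg
PDK4, upstream, chr7:95601221-95601249: cttggaggAAGTCATAGGTCAtctgactt
FABP3, intron, chr1:31371855-31371883: gtagaagaAGGGCTGAGGTCAatcattag
SLC25A20, intron, chr3:48897253-48897281: tgcacttcAGTGCAGAGGTCAtccagtcc
ACADVL, exon, chr17:7220309-7220337: ccgaaagtAGGGGAAAGGGCAagccaggg
ACADVL, exon, chr17:7220347-7220375: gcgaaactAGGGGAAAGGTCAccgcttcg
PLIN2, ANGPTL4, CPT2 and HADHA had no such match in these windows. The matches are letters in a window and were not measured here as binding sites.

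Levels per transcript length in the vehicles spanned a wide range. On the scale of CPM per kilobase, as the mean of both vehicles, ACADVL stood at 107 and HADHA at 51.4, above 96.2% and 90.9% of 13516 expressed protein-coding genes. The droplet protein PLIN2 was at 29.6. CPT2 (8.99), SLC25A20 (8.65), CPT1A (8.45) and ANGPTL4 (6.99) lay near the median expressed gene, which was at 7.51. PDK4 (0.223) and FABP3 (0.184) were among the lowest, above 6.8% and 5.7% of expressed genes. FABP3 had between 1 and 12 counts in each library and was removed by the filter on low counts in all 10 comparisons, and the other 8 genes were tested in all of them.

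**Figure D1:**
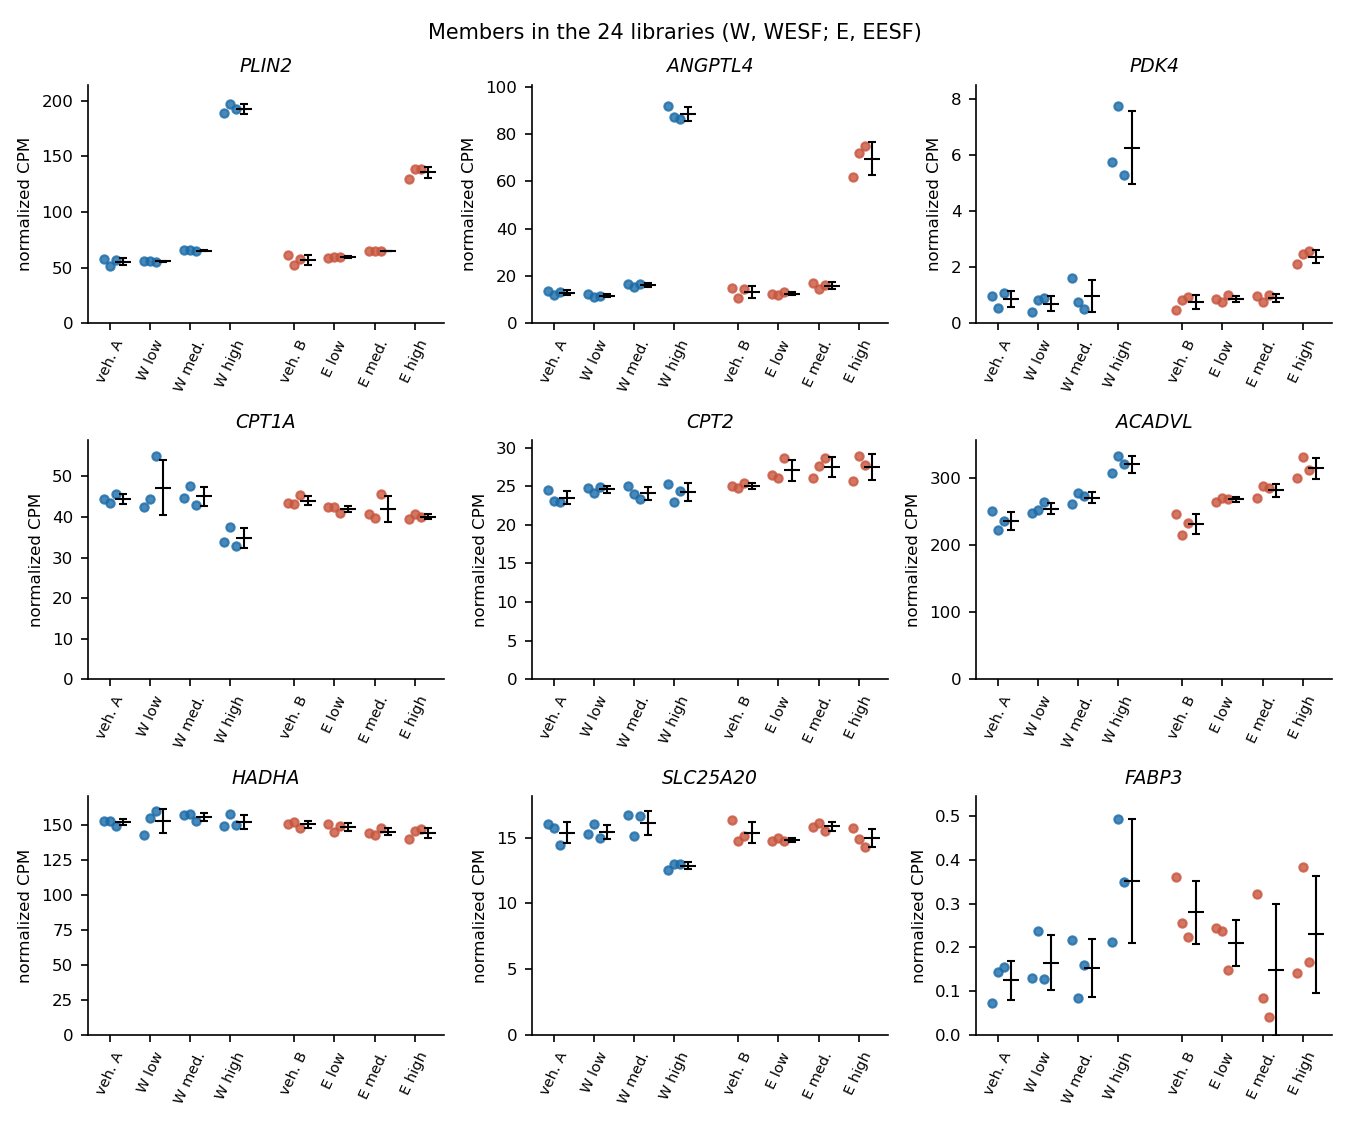
Normalized level (CPM, linear axes from 0) of the 9 genes in the 24 libraries, with blue points for batch A and red for batch B, and the mean and SD of 3 libraries in black. PLIN2, ANGPTL4 and PDK4 stood above every other group at both high doses, and CPT1A and SLC25A20 lay below their vehicle at the high dose of WESF.

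At the high dose of WESF (500 µg/mL) 3 PPAR targets outside the oxidation pathway rose (PLIN2, ANGPTL4 and PDK4). The genes of the pathway itself changed less and in both directions. FABP3, which also lies outside the pathway, was not tested. In absolute log2 fold change ACADVL exceeded 64% and CPT1A 55.3% of all genes tested, and SLC25A20 exceeded 43.2%, CPT2 8.3% and HADHA 0.7%. Of the 8 genes tested, 4 passed the test upward (PLIN2, ANGPTL4, PDK4, ACADVL), 2 downward (CPT1A, SLC25A20) and 2 did not pass (CPT2, HADHA). Passing means an adjusted p under 0.05 in edgeR's quasi-likelihood test (2-sided, Benjamini-Hochberg over all genes), and 68.9% of the 13129 genes tested passed it there (34.3% upward and 34.6% downward). A differentially expressed gene (DEG) also had to change more than 1.5-fold, which 3 of the 8 did, all higher. Among all genes 11.1% were DEGs that were higher. The median log2 fold change of the 8 genes was 0.24, and that of all genes 0.001.

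At the high dose of EESF (310 µg/mL) the same 3 genes were the DEGs of the group. PLIN2, ANGPTL4, PDK4 and ACADVL passed the test upward, which 29.3% of the 13092 genes did, and none passed it downward, against 28.7% of all genes. In all 58% passed, and 8.21% were DEGs that were higher. The median of the 8 genes was 0.29 on the log2 scale, against 0.007 for all genes. Each of these 4 calls, and the 6 at the high dose of WESF, was kept by all the alternative fits that were run.

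PLIN2 (ENSG00000147872, chr9:19108375-19149290, minus strand) encodes perilipin 2, a marker of stored fat. It was at 57.7, 51.6 and 56.5 CPM in vehicle A and at 189, 197 and 193 CPM at the high dose of WESF. Its level in batch B was 61.1, 52.1 and 57.7 CPM in the vehicle and 130, 139 and 139 CPM at the high dose of EESF. No high-dose library came near a vehicle library. The medium doses gave 65.6, 65.7 and 64.7 CPM for WESF and 65.4, 65.1 and 64.8 CPM for EESF, above all 6 vehicle libraries. At the low doses PLIN2 was at 56.0, 56.2 and 55.4 CPM for WESF and at 58.3, 60.0 and 59.8 CPM for EESF, within the range of the vehicles. The fold change over the vehicle was 3.49 at the high dose of WESF (log2 1.80, SE 0.049, edgeR adjusted p = 2.06e-14) and 2.39 at that of EESF (log2 1.26, SE 0.064, edgeR adjusted p = 3.01e-08).

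In order of mean level, PLIN2 was highest at the high dose of WESF (192.8 ± 4.37 CPM, SD, n = 3) and next at that of EESF (135.9 ± 5.03). The medium doses followed at 65.35 ± 0.558 CPM for WESF and 65.1 ± 0.283 CPM for EESF and overlapped each other. The remaining 4 groups had means between 55.26 and 59.37 CPM, and each low dose lay inside the range of its own vehicle. PLIN2 passed the test at the medium dose of both extracts, by 0.24 on the log2 scale for WESF (edgeR adjusted p = 0.0151) and 0.20 for EESF (edgeR adjusted p = 0.0256). Both medium calls were lost in some of the alternatives. For WESF the edgeR adjusted p was 0.0826 and 0.0849 without replicate 2 or 3 of the medium dose and 0.107 without replicate 2 of vehicle A. For EESF it was 0.0747, 0.0714 and 0.0816 without replicate 1, 2 or 3 of the medium dose and 0.166 without replicate 2 of vehicle B, and 0.054 with all genes of the table.

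ANGPTL4 (ENSG00000167772, chr19:8363289-8374370, plus strand) had the largest change of the 9 genes with EESF. It was at 13.7, 11.9 and 13.2 CPM in vehicle A and at 92.0, 87.0 and 86.4 CPM at the high dose of WESF. Its level in batch B was 14.7, 10.5 and 14.4 CPM in the vehicle and 61.9, 71.8 and 75.1 CPM at the high dose of EESF. The high-dose libraries stood far above all others in both batches. The rise was 6.83-fold with WESF (log2 2.77, SE 0.059, edgeR adjusted p = 8.45e-16) and 5.28-fold with EESF (log2 2.40, SE 0.11, edgeR adjusted p = 1.48e-08). A larger absolute log2 fold change was seen for few genes, since ANGPTL4 exceeded 99.6% of those tested with WESF and 99.7% with EESF.

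At the medium doses ANGPTL4 was at 16.7, 15.4 and 16.7 CPM for WESF, above each vehicle A library, and at 17.1, 14.5 and 16.3 CPM for EESF, which overlapped vehicle B. The low dose of WESF gave 12.5, 11.3 and 11.5 CPM, of which 11.3 and 11.5 lay below each vehicle A library. That of EESF gave 12.5, 12 and 13.1 CPM, inside the range of vehicle B, and neither low dose passed. The medium dose of WESF passed the test with a log2 fold change of 0.33 (edgeR adjusted p = 0.022), and that of EESF had 0.28 (edgeR adjusted p = 0.0835). The WESF call was lost without replicate 1, 2 or 3 of that dose (edgeR adjusted p = 0.0615, 0.0548 and 0.124) and without replicate 2 of vehicle A (edgeR adjusted p = 0.121). At the medium dose of EESF the value passed without replicate 1 of vehicle B (edgeR adjusted p = 0.0331) and with no filter on low counts (0.0415). Of the 8 angiopoietin-like genes in the family, ANGPTL2 was the other one tested. It fell by 0.97 on the log2 scale with WESF (edgeR adjusted p = 4.77e-11) and by 0.48 with EESF (edgeR adjusted p = 4.49e-05).

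PDK4 (ENSG00000004799, chr7:95583499-95596516, minus strand) started from a level close to the filter. It was at 0.958, 0.543 and 1.09 CPM in vehicle A, which is 26, 15 and 28 counts, and at 5.76, 7.74 and 5.30 CPM (136, 157 and 121 counts) at the high dose of WESF. In vehicle B it was at 0.464, 0.818 and 0.949 CPM (9, 16 and 17 counts), and at the high dose of EESF at 2.12, 2.46 and 2.56 CPM (60, 77 and 77 counts). The lowest high-dose library was above the highest vehicle library in each batch. With these counts PDK4 rose 7.22-fold with WESF (log2 2.85, SE 0.21, edgeR adjusted p = 3.56e-09) and 3.21-fold with EESF (log2 1.68, SE 0.24, edgeR adjusted p = 7.14e-05). The SE of PDK4 was larger than that of PLIN2 (0.049 and 0.064).

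At the medium and low doses PDK4 overlapped its vehicle. It was at 1.60, 0.758 and 0.518 CPM at the medium and 0.391, 0.814 and 0.895 CPM at the low dose of WESF, and at 0.966, 0.755 and 0.991 CPM at the medium and 0.852, 0.753 and 0.995 CPM at the low dose of EESF. None of these 4 comparisons passed, with edgeR adjusted p between 0.535 and 0.999. PDK4 shares its substrate with 3 other kinases. PDK1 rose by 0.38 (WESF, edgeR adjusted p = 1.71e-05) and 0.19 (EESF, edgeR adjusted p = 0.0224) on the log2 scale. PDK2 fell by 0.28 with WESF (edgeR adjusted p = 0.00567) and had -0.03 with EESF, whereas PDK3 had -0.04 with WESF and fell by 0.35 with EESF (edgeR adjusted p = 0.00145). At its highest, 1.74 CPM per kilobase at the high dose of WESF, PDK4 came near the vehicle level of PDK1 (1.91). It stayed well below those of PDK2 (6.41) and PDK3 (7.89).

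**Figure D2:**
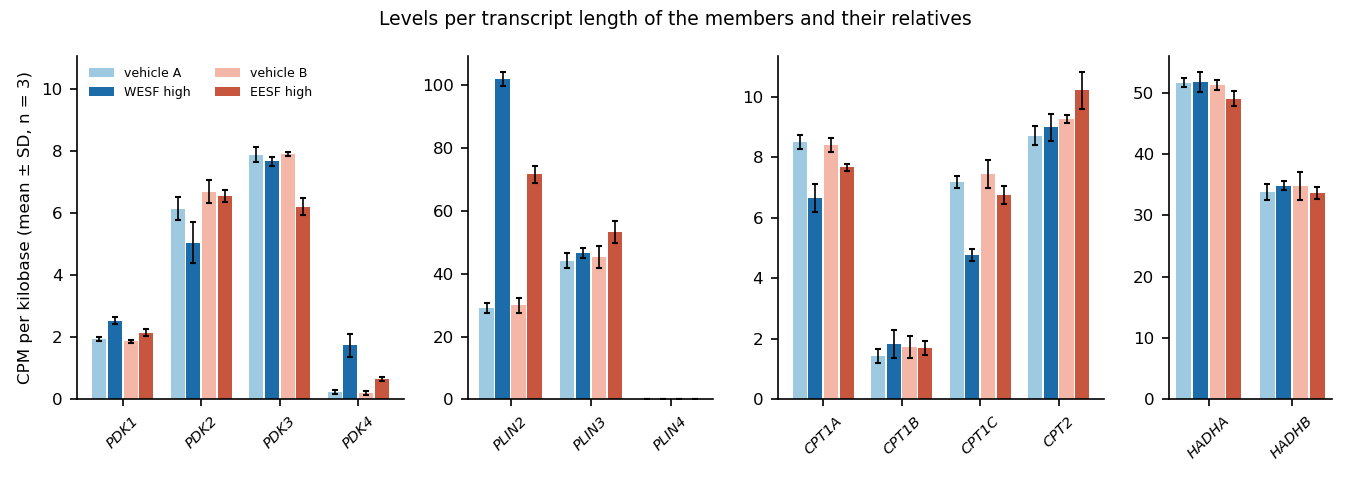
Level per transcript length (CPM per kilobase, linear axes from 0, bars are means and whiskers the SD of 3 libraries) of 4 gene families in both vehicles and at both high doses. PLIN2 went from 29.1 to above the level of PLIN3 (44.2 in vehicle A), while PDK4 remained the lowest of its family, and neither HADHA nor HADHB passed the test.

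Among the perilipins, PLIN3 was the most abundant in the vehicles at 44.7 CPM per kilobase and had a log2 fold change of 0.08 with WESF (edgeR adjusted p = 0.154) and of 0.24 with EESF, where it passed the test (edgeR adjusted p = 0.00915). PLIN4 was near the filter and had 0.03 and 0.04. PLIN1 and PLIN5 had at most 18 and 3 counts in any library and were not tested.

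CPT1A (ENSG00000110090, chr11:68754620-68844410, minus strand), the step at which entry of fatty acids is regulated, was at 44.3, 43.4 and 45.7 CPM in vehicle A and at 33.9, 37.5 and 32.9 CPM at the high dose of WESF. Its level in batch B was 43.4, 43.3 and 45.4 CPM in the vehicle and 39.6, 40.8 and 39.9 CPM at the high dose of EESF. Neither pair of groups overlapped. The gene fell by 0.36 on the log2 scale with WESF (SE 0.056, edgeR adjusted p = 2.41e-05) and had -0.13 with EESF, which missed the threshold (SE 0.055, edgeR adjusted p = 0.0538). With EESF the change passed with DESeq2's size factors (edgeR adjusted p = 0.0455), with all genes of the table (0.0381) and with all groups of the batch in the fit (0.0364). The medium doses gave 44.7, 47.7 and 43.0 CPM for WESF and 40.6, 39.7 and 45.7 CPM for EESF, and the low doses 42.4, 44.3 and 54.9 and 42.5, 42.5 and 41 CPM, with no call.

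SLC25A20 (ENSG00000178537, chr3:48856926-48898904, minus strand), the carrier that brings acylcarnitines through the inner membrane, was at 16.0, 15.7 and 14.4 CPM in vehicle A and at 12.5, 13 and 13 CPM at the high dose of WESF. Its level in batch B was 16.3, 14.7 and 15.1 CPM in the vehicle and 15.7, 14.9 and 14.3 CPM at the high dose of EESF. The groups were apart in batch A and overlapped in batch B. It fell by 0.26 on the log2 scale with WESF (SE 0.071, edgeR adjusted p = 0.00338) and had -0.04 with EESF (SE 0.073, edgeR adjusted p = 0.655). The medium and low doses of both extracts lay between 14.80 and 16.12 CPM in the mean, and none passed.

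CPT2 (ENSG00000157184, chr1:53196792-53214197, plus strand) was at 24.5, 23.1 and 22.9 CPM in vehicle A and 25.3, 23.0 and 24.4 CPM at the high dose of WESF. Batch B had 25.0, 24.7 and 25.4 CPM in the vehicle and 25.7, 28.9 and 27.8 CPM at the high dose of EESF. The ranges overlapped in batch A, and with EESF every library was higher than its vehicle. The log2 fold change was 0.04 (SE 0.06, edgeR adjusted p = 0.524) and 0.14 (SE 0.066, edgeR adjusted p = 0.0966), and the latter passed without replicate 1 of the high dose (edgeR adjusted p = 0.0204). CPT2 was the one gene of the 9 whose counts were not whole in any library, so reads were shared with other genes. It overlaps a long noncoding RNA (1151 exon bases) and CZIB (99 exon bases) on the other strand, and whether the counting used strand is not stated in the sources used here, so such reads cannot be told apart.

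Of the relatives of CPT1A, CPT1C, the form of neurons, which lies in the endoplasmic reticulum, fell by 0.59 with WESF (edgeR adjusted p = 4.44e-07) and had -0.14 with EESF (edgeR adjusted p = 0.103), both on the log2 scale, and the difference itself passed (0.45, edgeR adjusted p = 0.00209). CPT1B, the muscle form, had 0.35 (edgeR adjusted p = 0.0752) and -0.03 (edgeR adjusted p = 0.897) from a level of 1.58 CPM per kilobase.

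ACADVL (ENSG00000072778, chr17:7217125-7225266, plus strand), the most abundant of the 9 genes per transcript length, rose in small steps. It was at 251, 223 and 236 CPM in vehicle A, 248, 252 and 264 at the low, 262, 278 and 273 at the medium and 308, 333 and 321 CPM at the high dose of WESF. Its level in batch B was 246, 215 and 233 CPM in the vehicle, 265, 271 and 269 at the low, 271, 289 and 286 at the medium and 300.0, 331 and 313 CPM at the high dose of EESF. The high and medium groups did not overlap the vehicle in either batch, nor did the low dose of EESF, whereas the low dose of WESF did. The log2 fold change at the high dose was 0.44 with both extracts, with an SE of 0.049 for WESF (edgeR adjusted p = 4.83e-07) and of 0.061 for EESF (edgeR adjusted p = 5.55e-05). ACADVL was not a DEG at any dose.

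The smaller ACADVL changes depended on single libraries in part. At the medium dose the log2 fold change was 0.20 for WESF (edgeR adjusted p = 0.0309) and 0.29 for EESF (edgeR adjusted p = 0.00227), and at the low dose of EESF 0.20 (edgeR adjusted p = 0.0155). The medium call for EESF was kept by each alternative fit. The medium call for WESF was lost without replicate 2 or 3 of that dose (edgeR adjusted p = 0.154 and 0.15) and without replicate 2 or 3 of vehicle A (0.177 and 0.0676). The low call for EESF was lost without replicate 1, 2 or 3 of that dose (edgeR adjusted p = 0.0596, 0.0774 and 0.0691) and without replicate 2 of vehicle B (0.0962). ACADVL shares 49 exon bases with DLG4 on the other strand.

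HADHA (ENSG00000084754, chr2:26190635-26244672, minus strand) passed the test in none of the 10 comparisons. It was at 153, 153 and 149 CPM in vehicle A and 149, 158 and 150 CPM at the high dose of WESF. Batch B had 151, 152 and 148 CPM in the vehicle and 140, 146 and 147 CPM at the high dose of EESF. The ranges overlapped in batch A, and all 3 EESF libraries were below their vehicle. The log2 fold change was 0.003 (SE 0.043, edgeR adjusted p = 0.955) and -0.06 (SE 0.048, edgeR adjusted p = 0.296). HADHB, which encodes the β subunit of the same protein from the neighbouring gene on the opposite strand, had 0.04 (edgeR adjusted p = 0.457) and -0.05 (edgeR adjusted p = 0.463).

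FABP3 (ENSG00000121769, chr1:31365253-31376850, minus strand), the fatty acid carrier of heart and muscle, had 2, 4 and 4 counts in vehicle A and 5, 10 and 8 counts at the high dose of WESF. It had 7, 5 and 4 counts in vehicle B and 4, 12 and 5 counts at the high dose of EESF. The other groups had between 1 and 9 counts per library. FABP3 was removed by the filter on low counts and has no test here. Of its relatives, FABP4 had 0 counts in all libraries, FABP7 at most 1 and FABP5 at most 14, and FABP5 had a log2 fold change of 0.08 with WESF (edgeR adjusted p = 0.864).

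**Figure D3:**
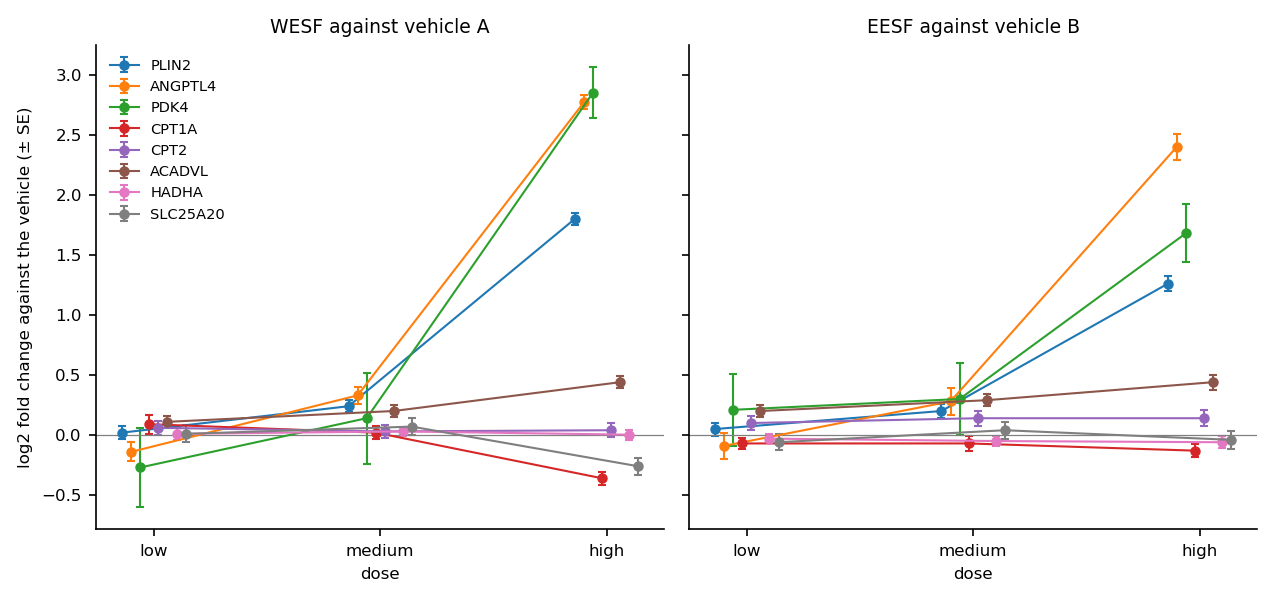
Log2 fold change of the 8 tested genes against the vehicle of their batch (y axis, with the SE) at the low, medium and high dose of WESF (left) and EESF (right), with lines joining the doses of a gene. ANGPTL4, PDK4 and PLIN2 stayed at or under 0.33 up to the medium dose and reached between 1.26 and 2.85 at the high dose, whereas the other genes stayed between -0.36 and 0.44.

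The medium and low doses were compared with the same vehicles. At the medium dose 3 of 8 genes passed with WESF (PLIN2, ANGPTL4, ACADVL), where 4.1% of 13112 genes did, and 2 of 8 with EESF (PLIN2, ACADVL), where 15.4% of 12978 did. All passed upward, as 1.89% and 6.9% of all genes did, and none was a DEG, which 0.275% and 0.755% of all genes were. At the low dose of EESF 1 of 8 passed (ACADVL, higher), against 9.35% of 12892 genes (3.11% upward). At the low dose of WESF edgeR called 0 of 8 and 0% of 13131 genes, while 470 had an unadjusted p under 0.05, and over all genes DESeq2 called 1.

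The step from the medium to the high dose does not involve the vehicles. ANGPTL4 rose over it by 2.45 on the log2 scale with WESF (edgeR adjusted p = 4.47e-18) and by 2.13 with EESF (edgeR adjusted p = 5.23e-10). PDK4 rose by 2.72 (edgeR adjusted p = 8.49e-09) and 1.39 (edgeR adjusted p = 3.73e-05), and PLIN2 by 1.57 (edgeR adjusted p = 5.36e-17) and 1.07 (edgeR adjusted p = 2.43e-09). Thus most of the rise of all 3 genes lay between the 2 higher doses. CPT1A and SLC25A20 fell over the step by 0.37 and 0.32 with WESF (edgeR adjusted p = 6.72e-06 and 0.000428) and had -0.06 and -0.08 with EESF (edgeR adjusted p = 0.429 and 0.358). ACADVL rose by 0.25 with WESF (edgeR adjusted p = 1.16e-05) and by 0.16 with EESF (edgeR adjusted p = 0.019). The latter was lost without replicate 2 of the high dose (edgeR adjusted p = 0.106) or replicate 1 of the medium dose (0.0844). In all 6 of 8 genes passed with WESF and 4 of 8 with EESF, against 67.6% and 50.9% of all genes.

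The vehicles of the batches were also compared with each other. None of the 8 passed between vehicle B and vehicle A, with log2 differences of 0.04 for PLIN2, 0.02 for ANGPTL4 and -0.22 for PDK4 (edgeR adjusted p = 1 for each). Over all genes 0% of 13001 passed with edgeR, 371 had an unadjusted p under 0.05, and DESeq2 called 3. Vehicle libraries with the same number deviated together, and with the number as a block 478 genes passed, none of them among the 8.

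The extracts were then compared at the high dose, as the EESF change minus the WESF change in a fit of 12 libraries. PLIN2 rose less with EESF, by -0.54 on the log2 scale (SE 0.08, edgeR adjusted p = 0.000257), and this call was kept by each alternative. PDK4 had -1.17 (SE 0.39, edgeR adjusted p = 0.0382), the one DEG of the group in this comparison, and ANGPTL4 had -0.37 (SE 0.14, edgeR adjusted p = 0.0597). For CPT1A, which fell with WESF and did not pass with EESF, the difference was 0.23 (SE 0.074, edgeR adjusted p = 0.0351). SLC25A20 had 0.22 (SE 0.095, edgeR adjusted p = 0.0936) and ACADVL 0.0036 (SE 0.08, edgeR adjusted p = 0.979). In this comparison 26% of 13376 genes passed and 3.88% were DEGs, beside 3 and 1 of the 8. The doses in µg/mL and the batches differ as well, and their parts cannot be told apart.

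The results for ANGPTL4, PDK4 and CPT1A changed with the fit. With the vehicles blocked by number, ANGPTL4 passed (edgeR adjusted p = 0.0262), as it did with no filter (0.0397), with all groups in the fit (0.0251), with DESeq2 (DESeq2 adjusted p = 0.0276) and without replicate 3 of the high dose of EESF (0.0407) or without replicate 2 of vehicle B (0.00972). The PDK4 call was lost without replicate 2 of the high dose of EESF (edgeR adjusted p = 0.0581), replicate 2 or 3 of vehicle B (0.113 and 0.147), replicate 2 of the high dose of WESF (0.0678) or replicate 2 of vehicle A (0.0921). The CPT1A call was lost without replicate 2 or 3 of the high dose of EESF (edgeR adjusted p = 0.0798 and 0.0563), replicate 1 or 2 of vehicle B (0.0638 and 0.0839), replicate 1 or 3 of the high dose of WESF (0.0852 and 0.101) or replicate 1 or 3 of vehicle A (0.0563 and 0.0732), and also with no filter (0.051), with all groups in the fit (0.0865) and with DESeq2 (DESeq2 adjusted p = 0.0623). With the number as a block in all groups, PLIN2 was the 1 gene of the 8 that passed.

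The wider pathway was read from lists of genes by role, whose counts stand beside the shares of all genes given above. Of 17 genes of mitochondrial β-oxidation 16 were tested. With WESF 5 passed upward and 6 downward (median log2 fold change -0.05), where 34.3% and 34.6% of all genes did, and with EESF 5 upward and 5 downward (median 0.06), where 29.3% and 28.7% did. These counts are near the background. HSD17B10, a dehydrogenase of branched and short chains, fell by 0.73 with WESF (edgeR adjusted p = 6.67e-09) and 0.41 with EESF (edgeR adjusted p = 0.000359) on the log2 scale. ACAD9, which also assembles respiratory complex I, fell by 0.60 and 0.29, and DECR1, the reductase for unsaturated chains, by 0.60 and 0.39. ACADS, the dehydrogenase of short chains, rose by 0.44 (edgeR adjusted p = 0.0413) and 0.87 (edgeR adjusted p = 0.000529).

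In the carnitine shuttle and activation of fatty acids, 13 of 14 genes were tested, with 4 higher and 5 lower with WESF and 3 higher and 2 lower with EESF. The peroxisomal transferase CROT fell by 0.73 with WESF (edgeR adjusted p = 4.63e-08) and 0.82 with EESF (edgeR adjusted p = 1.57e-05). SLC22A5, which imports carnitine, rose by 0.67 (edgeR adjusted p = 1.13e-08) and 0.35 (edgeR adjusted p = 0.000323), and CRAT, the acetyltransferase, by 0.48 and 0.65. ACSL4, the most abundant acyl-CoA synthetase of the list at 68.1 CPM per kilobase, rose by 0.23 with WESF (edgeR adjusted p = 0.000202) and had -0.01 with EESF. ACSBG1 is among the 3 higher with EESF, but in batch B it passed the filter only through the high dose, where it had at most 28.21 counts against at most 9.24 in the vehicle, so its call is no support for a rise. Among 10 genes of fatty acid uptake and binding, 7 were tested with WESF (1 higher, 4 lower) and 6 with EESF (1 higher, 3 lower). The transporter SLC27A4 fell by 0.59 and 0.24, and the scavenger receptor CD36, from 0.445 CPM per kilobase, by 0.93 and 0.72.

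Peroxisomal β-oxidation had no gene that passed upward at either high dose against its vehicle. Of 14 genes 13 were tested, and 10 passed downward with WESF (median -0.27) and 8 with EESF (median -0.26), against 34.6% and 28.7% of all genes tested. ACOX2, the oxidase of branched chains and bile acid precursors, fell by 1.71 (edgeR adjusted p = 0.000119) and 1.38 (edgeR adjusted p = 0.00164). It had 26 to 37 counts in vehicle A and 21 to 27 in vehicle B. PECR, a peroxisomal enoyl-CoA reductase, fell by 0.84 and 0.51. HSD17B4, the most abundant of the list, fell by 0.27 and 0.26.

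**Figure D4:**
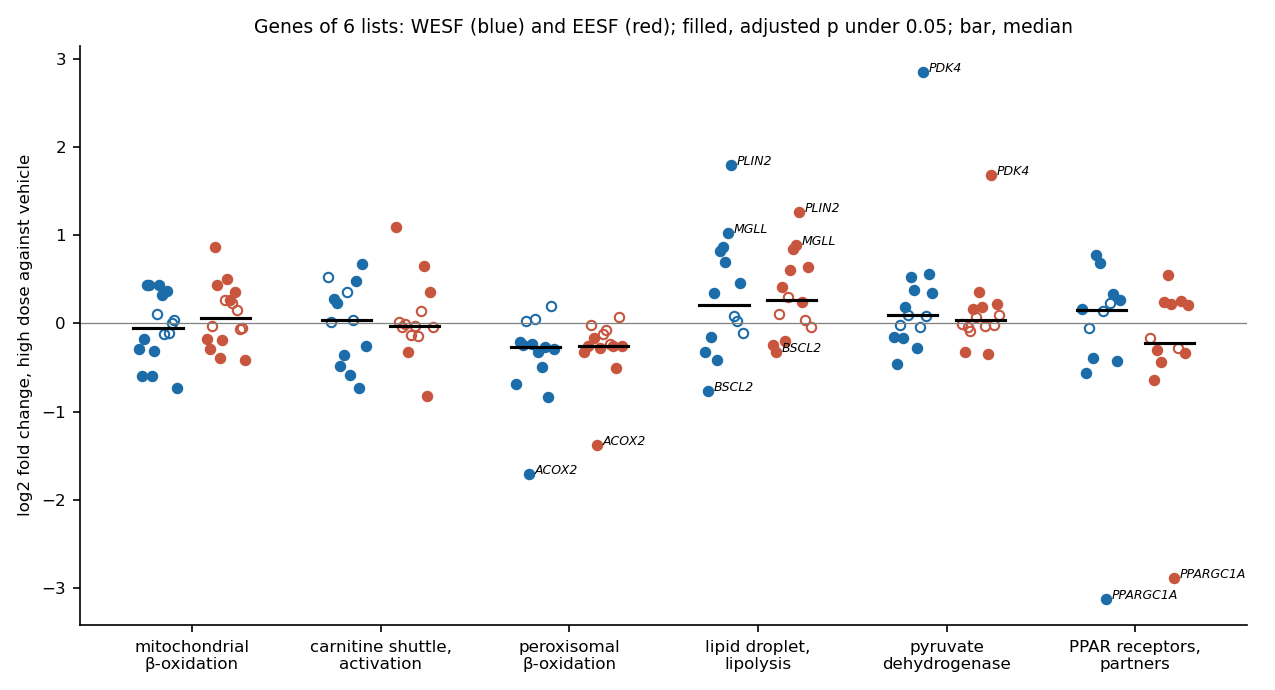
Log2 fold change at the high dose against the vehicle (y axis) for the tested genes of 6 lists, blue for WESF and red for EESF. Filled points passed the test, bars are list medians, and 6 genes are labelled. All filled points of the peroxisomal list lie below 0, and PLIN2, PDK4 and PPARGC1A stand apart from the other points of their lists.

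Of 20 genes of the lipid droplet and lipolysis 14 were tested, with 7 higher and 4 lower with WESF and 7 higher and 3 lower with EESF, and PLIN2 is one of them. MGLL, the monoacylglycerol lipase, rose by 1.02 (edgeR adjusted p = 5.17e-10) and 0.89 (edgeR adjusted p = 6.48e-07). The hormone-sensitive lipase LIPE rose by 0.69 and 0.84, and PNPLA2, the first lipase of triglyceride, by 0.46 and 0.64. HILPDA, which inhibits PNPLA2, rose by 0.87 (edgeR adjusted p = 2.46e-08) and 0.60 (edgeR adjusted p = 2.9e-05). G0S2, another inhibitor of PNPLA2, rose by 0.82 with WESF (edgeR adjusted p = 0.00669) and had 0.30 with EESF, from a low level with at most 46 counts in any library. BSCL2, the seipin of droplet formation, fell by 0.77 and 0.33.

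The receptors were expressed. PPARD was the highest of the PPARs at 32.7 CPM per kilobase, ahead of PPARG (10.9) and PPARA (4.01). PPARD rose by 0.68 with WESF (edgeR adjusted p = 3.4e-10) and 0.55 with EESF (edgeR adjusted p = 2.12e-06). PPARA rose by 0.77 (edgeR adjusted p = 2.63e-08) and 0.24 (edgeR adjusted p = 0.039), whereas the partner RXRA fell by 0.43 and 0.34. PPARGC1A, a coactivator that drives oxidative genes, was low at 0.415 CPM per kilobase and fell further. It went from 73 to 78 counts in the vehicle A libraries to 3 to 11 at the high dose of WESF, and from 41 to 50 in vehicle B to 6 to 13 at that of EESF, and the log2 fold change was -3.12 (edgeR adjusted p = 4.91e-08) and -2.89 (edgeR adjusted p = 2.66e-06). Of 13 receptors and partners 12 were tested, and at the high dose 5 were higher and 4 lower with WESF and 5 higher and 5 lower with EESF. At the medium dose of EESF 5 of the 12 passed, all downward, where 15.4% of all genes passed in either direction (6.9% upward). At its low dose 4 passed, all downward, where 9.35% did in either direction (3.11% upward). With WESF 1 passed at the medium dose, downward, where 4.1% did in either direction (1.89% upward). At the low dose of WESF 0 passed, where 0% of all genes did.

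Known PPAR targets passed the test in both directions. The list has 25 genes and includes the 9 members. With WESF 18 were tested, and 5 passed upward and 7 downward (median 0.02), where 34.3% and 34.6% of all genes did. These counts are near the background. With EESF 19 were tested, and 7 passed upward and 2 downward (median 0.07), where 29.3% and 28.7% did. In all 66.7% of the list passed with WESF and 47.4% with EESF, beside 68.9% and 58% of all genes. UCP2, an uncoupling protein, fell by 0.31 with WESF (edgeR adjusted p = 0.00591) and rose by 0.37 with EESF (edgeR adjusted p = 0.00269). Its relative UCP3, with at most 34 counts in any library, fell by 1.18 with WESF (edgeR adjusted p = 0.00146). VNN1 is among the 7 upward, but it passed the filter only through the high dose of EESF, where it had 15 to 24 counts against 2 to 7 in vehicle B, so its call is no support for a rise. CYP4A11, a classical PPARα target of the liver, had at most 1 count in any library.

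The remaining lists cover what feeds or brakes the pathway. Of 14 genes of the pyruvate dehydrogenase switch, all tested, 6 passed upward and 4 downward with WESF and 5 and 2 with EESF, and PDK4 was the DEG among them. Of 10 genes of malonyl-CoA and AMPK, 6 were higher and 2 lower with WESF and 4 and 3 with EESF. ACACB, which makes the malonyl-CoA that inhibits CPT1, fell by 1.58 (edgeR adjusted p = 1.55e-09) and 1.48 (edgeR adjusted p = 7.64e-06), and ACACA by 0.39 and 0.59. Of 5 ketone body enzymes 4 were tested, with 1 higher and 3 lower with WESF and 1 and 2 with EESF. BDH1, which interconverts the ketone bodies, fell by 1.03 and 0.40.

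Values of other regulators known to act on PLIN2, ANGPTL4 or PDK4 are given beside them. Of 14 targets of the hypoxia-inducible factor, 8 were higher and 3 lower with WESF (median 0.32), and 5 and 4 with EESF (median 0.08). NDRG1 rose by 1.74 and 1.16, VEGFA by 1.14 and 0.80 and ADM by 0.83 and 0.30, whereas LDHA, the most abundant of the list, fell by 0.37 and 0.41 and BNIP3 by 0.29 and 0.46. Of 10 glucocorticoid targets 9 were tested, with 5 higher with WESF and 2 with EESF and none lower. DUSP1 rose by 1.92 and 1.20, and FKBP5 had -0.17 (edgeR adjusted p = 0.147) and -0.0021 (edgeR adjusted p = 0.985). The part of these regulators in the values of the 9 genes was not tested.

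Markers of other cell types moved too. Of 10 astrocyte markers 5 were tested, and 4 passed downward with either extract, among them SLC1A3, which fell by 1.62 and 1.39, SOX9, by 0.69 and 0.82, and CD44, by 0.72 and 0.48. The summed level of all 10 markers was 2860 CPM per kilobase in vehicle A and 2620 at the high dose of WESF, and 2920 in vehicle B and 2900 at that of EESF. Most of it was VIM, at 2240 and 2230 in batch A and at 2290 and 2450 in batch B. Among 16 markers of neurons, glia, blood, vessels and stroma, 10 were tested with WESF (2 higher, 8 lower) and 9 with EESF (1 higher, 7 lower). RBFOX3, among the 2 higher with WESF, passed the filter only through the high dose, where it had 12 to 18 counts against 2 to 4 in vehicle A, so its call is no support for a rise. The neuronal sum went from 19.1 to 7.38 CPM per kilobase with WESF and from 19.9 to 9.28 with EESF, mostly SNAP25, and the stromal sum, mostly COL1A1, from 657 to 506 and from 657 to 584. Markers of microglia and blood summed to 2.87 and 0.793 in batch A and to 2.78 and 0.861 in batch B, and oligodendrocyte markers, mostly MBP, to 2.56 and 4.67 and to 2.52 and 3.58. Their part in the values of the 9 genes was not tested.

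Liver, muscle and fat, the tissues in which these genes are most studied, left little signal. Of 10 of their markers 2 were tested. CPS1 fell by 1.19 and 0.98 from at most 53 counts. ACTC1 had 0.44 with WESF (edgeR adjusted p = 0.0849), from 24 to 33 counts in vehicle A. With EESF it rose by 1.10 (edgeR adjusted p = 0.000927), from 14 to 17 counts in vehicle B, and no library had more than 63. At the lower doses ACTC1 also rose, by 0.96 at the medium dose of WESF (edgeR adjusted p = 0.0272), 1.24 at the medium dose of EESF (edgeR adjusted p = 0.00738) and 0.89 at its low dose (edgeR adjusted p = 0.0351). ADIPOQ had 0 counts in all libraries, ALB at most 2 and CKM at most 3. The 3 fat cell markers summed to 0.0211 CPM per kilobase in vehicle A and 0.163 with the high dose of WESF, and to 0.0304 in vehicle B and 0.0632 with that of EESF.

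The genes with the pattern most like that of each member were found over the 18 treated libraries, as the Pearson correlation of log2(CPM + 1) minus the mean of the vehicle of the batch, among genes with a mean of at least 10 CPM. For PLIN2 they were NDRG1 (r = 0.997), INHBA and ASNS (both 0.996). For ANGPTL4 they were PLAUR (0.996), SPRYD3 (0.994) and F3 (0.993), and for PDK4 GOLGA5 (0.976), HSPA9 (0.972) and ATG13 (0.967). Those of ACADVL were CDK5RAP3 (0.972), CLK2 (0.969) and MBD4 (0.963), and those of SLC25A20 included ERLIN1 and GCSH (both 0.898). CPT1A was closest to KIF1C (0.911), HADHA to GTF3C1 (0.829) and CPT2 to PIK3R2 (0.789). Among the members, PLIN2 and ANGPTL4 had r = 0.99 and PLIN2 and CPT1A -0.75. The points share the vehicle means and the high-dose libraries of each batch, so these values are a description over libraries and no test of a relation.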

How the data were processed

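RNA-seq of SW1783 cells (24 libraries, 8 groups) was used. Per the labels and methods, the authors checked reads with FastQC 0.11.9, trimmed them with Trim Galore 0.6.6, aligned them with STAR 2.7.9a to GRCh38 (written as GRCh38 (hg19) in the methods) and counted them with RSEM 1.3.3. They deposited RSEM expected counts per gene, without normalization or filter, and 10.9% of the values are not whole. The library kit is directional, and the strand setting of the counting is not given in the sources used here.

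Symbols, positions and transcript lengths came from GENCODE release 44, which held 56558 of the 60675 identifiers (19586 protein-coding). Expected counts were rounded, protein-coding genes that passed filterByExpr were kept, and a fit held only the libraries compared (6, or 12 for the extract difference), in edgeR 4.0.16 (TMM, quasi-likelihood test) in R 4.3.3. DESeq2 1.42.0, the tool of the study, served as an alternative with these thresholds. Levels are CPM with TMM over all 24 libraries. Replicates differed by more than sampling noise (chi-square per degree of freedom 2.01 to 15.0). Other alternatives were DESeq2's size factors, no filter, all genes of the table, every group of the batch fitted together, a replicate block, and leaving out each library.

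Replicate numbers come from the sample titles. Deviations from the group mean correlated by 0.16 to 0.36 between same-numbered vehicle libraries of the batches and by -0.26 to 0.12 in the other comparisons. The main fits used no pairs, also between the vehicles, and the replicate number entered as a block only in alternatives. Counts were simulated for WESF at its high dose and vehicle A, with 13045 genes tested and a spread that followed the trend of vehicle A. There edgeR recovered 100% of 100 genes changed 2-fold and of 100 changed 4-fold, and 3.85% of its 208 calls were unchanged genes. The changed genes were drawn only from genes above the level of PDK4 in vehicle A. Far fewer genes were changed than passed in the data. The simulation thus cannot show recovery of PDK4 or of changes under 2-fold, such as those of ACADVL, CPT1A and SLC25A20. The members, the gene lists and the alternatives were chosen with earlier results of these data known. Genes named from a list are the members' relatives, up to 6 DEGs by size and up to 3 most abundant genes, and, beside this rule, a few genes named after their values were seen. Some genes of the lists and of the closest patterns are not reported here by name. Promoter sequences are from RefSeq (GRCh38.p14), and all 9 members matched.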

Additional observations from a re-analysis of the deposited data

Results flagged for a closer look

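The EESF change minus the WESF change at the high dose passed edgeR's interaction test for 37 of the 147 genes of the members and lists that were tested, a share near the 26% of all 13376 genes. Of these, 19 that are members, DEGs at either high dose or changed in opposite directions are given here on the log2 scale with the edgeR adjusted p, and doses and batches differ along with the extracts. Among the members the difference was -0.54 for PLIN2 (0.000257), -1.17 for PDK4 (0.0382) and 0.23 for CPT1A (0.0351). These values are from the fit without pairs. With the vehicles blocked by number, all 3 passed and ANGPTL4 did as well (-0.37, edgeR adjusted p = 0.0262).

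Other genes rose less with EESF than with WESF. The difference was -0.71 for DUSP1 (8.74e-06), -0.58 for NDRG1 (5.17e-05), -0.53 for ADM (0.00958), -0.53 for PPARA (0.00697), -0.34 for VEGFA (0.00109) and -0.31 for SLC22A5 (0.00745).

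For genes that fell with WESF, the difference was above 0 where the fall was smaller with EESF or, for CPT1C, did not pass. It was 0.63 for BDH1 (0.000101), 0.57 for SNAP25 (0.00161), 0.50 for ANGPTL2 (0.00059), 0.45 for CPT1C (0.00209), 0.43 for BSCL2 (0.0382), 0.35 for SLC27A4 (0.00675), 0.32 for HSD17B10 (0.0231), 0.31 for ACAD9 (0.0143) and 0.24 for CD44 (0.0106). UCP2 was the gene among these that passed in opposite directions, lower with WESF and higher with EESF, with a difference of 0.67 (0.000918).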

How the results depend on the processing

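Of 1013 values of the members under alternatives, 916 kept their direction and their side of the threshold, 42 no longer passed, 13 newly passed and 42 changed sign, none of the latter passing under either setting. Of 508 counts, 438 stayed within 1.5 times the main count. All calls of members at both high doses against the vehicle were kept. The cause of the changes below was not tested.

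With DESeq2 the DEGs were 23 in place of 36 at the medium dose of WESF, 33 in place of 98 at that of EESF and 6 in place of 35 at the low dose of EESF. It called 1 gene, a DEG, at the low dose of WESF and 3 genes between the vehicles. Without a filter 3 genes passed at the low dose of WESF (3 DEGs) and 4 between the vehicles (1 DEG), and the low dose of EESF had 64 DEGs. With all genes of the table that dose had 73 DEGs, and 1 member in place of 2 passed at the medium dose of EESF. HADHA at the high dose of WESF went from 0.003 to -0.0011 on the log2 scale without a filter. The extract difference of ACADVL went from 0.0036 to -0.0043 with DESeq2 and with its size factors, and to -0.0048 with all genes.

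The replicate block was applied to all comparisons, but the numbers pair only the vehicle libraries. With the block 478 genes and 17 DEGs in place of 0 were called between the vehicles. At the medium dose of WESF 1 member in place of 3 and 185 genes in place of 537 passed, with edgeR adjusted p = 0.0522 for PLIN2 and 0.092 for ACADVL. In the extract difference 1 member in place of 3, 0 member DEGs in place of 1 and 2245 genes in place of 3481 passed. With the vehicles alone as pairs, an alternative chosen after seeing the data, 4 members and 4163 genes passed. At the medium dose of EESF ANGPTL4 passed with the block (edgeR adjusted p = 0.0257).

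Leaving out 1 library at a time, the members that passed ranged from 0 to 3 at the medium dose of WESF, 1 to 3 at that of EESF, 0 to 1 at the low dose of EESF and 1 to 3 in the extract difference, with 0 to 1 member DEGs in the last. The genes that passed ranged from 72 to 1560 at the medium and 0 to 1 at the low dose of WESF, 791 to 2838 at the medium and 213 to 2679 at the low dose of EESF, and 0 to 2 between the vehicles. The DEGs ranged from 9 to 61, 0 to 1, 50 to 164, 11 to 91 and 0 to 2 in the same order.

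Log2 values that changed sign when 1 library was left out lay close to 0 or, for PDK4, rested on few counts. At the high dose of WESF HADHA ranged from -0.02 to 0.01. At the medium dose of WESF PDK4 ranged from -0.43 to 0.45 and CPT1A from -0.02 to 0.05. At its low dose the ranges were -0.03 to 0.05 for PLIN2, -0.03 to 0.15 for CPT1A, -0.02 to 0.05 for HADHA and -0.04 to 0.03 for SLC25A20. At the low dose of EESF PLIN2 ranged from -0.01 to 0.10 and PDK4 from -0.05 to 0.42. From the medium to the high dose CPT2 ranged from -0.01 to 0.05 with WESF, and with EESF CPT1A from -0.11 to 0.0015, CPT2 from -0.03 to 0.05 and HADHA from -0.02 to 0.02. Between the vehicles the ranges were -0.01 to 0.10 for PLIN2, -0.07 to 0.17 for ANGPTL4, -0.46 to 0.03 for PDK4, -0.04 to 0.0019 for CPT1A, -0.08 to 0.02 for ACADVL and -0.05 to 0.03 for SLC25A20. The extract difference of ACADVL ranged from -0.05 to 0.05. Depth limits FABP3 (at most 12 counts) and PDK4 (9 to 28 counts in the vehicles).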
